A study of Mus musculus with 4 samples.

Results

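Transcripts that mark B cells, myeloid cells and the class II antigen presentation pathway were followed in activated CD4+ T cells with and without the transcription factor Irf4. The members are 39 genes chosen by symbol: 16 B-cell markers, 11 genes of class II presentation and 12 myeloid markers. All 39 had a probe on the array, out of 45526 genes or unnamed transcripts measured, and 29 passed the filter on dim signal described below. The T cells had been cultured beside antigen-presenting cells, which are known to carry most of these markers.

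Cells came from male Irf4-/- mice and, as controls, from male wild-type mice, both of C57BL/6 background. Naive CD4+ T cells carrying CD62L and not CD44 were sorted from spleen and stimulated with an antibody to CD3e at 1 µg per ml beside an equal number of syngeneic antigen-presenting cells treated with mitomycin C, which stops division. Both genotypes received this stimulus, and on day 2 the living CD4+ cells were recovered by a second sort for total RNA. The labels do not give the genotype of the antigen-presenting cells or the number of mice pooled, and 1 protocol among them names shorter cultures than the day 2 used here. Each genotype has 2 samples, each on a one-colour Agilent array, and the study states 2 independent experiments.

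B cells, macrophages and dendritic cells take up antigen and show its peptides on class II molecules. The class II alpha and beta chains assemble with the invariant chain Cd74, proteases such as cathepsin S trim that chain, and the H2-DM and H2-O proteins control the exchange of peptides. Transcription of the class II chain genes depends on the coactivator Ciita. Mouse T cells are known to make little class II. Some genes on myeloid lists, among them Tyrobp and Itgam, are also used by natural killer cells.

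Levels are log2 of the background-subtracted signal minus the array's 75th percentile, so 0 is that percentile and a step of 1 is a factor of 2 in signal. The lowest level counted as well above background was -4.67 and -3.93 on the Irf4-/- arrays and -4.82 and -4.07 on the wild-type arrays. Testing required that the brightest probe of a gene exceed background clearly on both arrays in 1 genotype or both, and 20512 met this. Between 25718 and 28788 of 56605 probes passed on an array. All arrays lay on 1 slide, with both replicates 1 in slide row 1 and both replicates 2 in row 2, and the genotypes lay in different slide columns, so column and genotype cannot be told apart. Irf4 itself was at 4.23 and 4.04 in Irf4-/- cells, against 5.03 and 4.74 in wild-type cells (difference -0.75 ± 0.20 SE, limma adjusted p = 0.231). No source used here places this probe relative to the deleted segment, so the value checks nothing about the deletion.

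T-cell markers were bright on all 4 arrays. All 15 genes of a T-cell list were well above background throughout. Cd4 was at 5.82 and 5.75 in Irf4-/- cells, against 5.83 and 5.51 in wild-type cells, and Cd3e at 7.06 and 6.74 in Irf4-/- cells, against 7.06 and 6.76 in wild-type cells. Cd8b1, a chain of the CD8 co-receptor, was also above background everywhere, at 2.23 and 2.14 in Irf4-/- cells against 3.12 and 3.21 in wild-type cells (difference -0.98, limma adjusted p = 0.0980). Of the 2 genes on the CD8 list only Cd8b1 was tested, and Cd8a, the other chain, did not pass the filter on dim signal.

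Of the 29 tested members 1 rose in Irf4-/- cells at an adjusted p under 0.05, none fell and 28 did not pass (limma with Benjamini-Hochberg adjustment over all 20512). Over all features the same rule called 0.736%, made up of 0.492% higher and 0.244% lower. At an unadjusted p under 0.05 the count was 13 of 29 members, 44.8%, beside 11.4% of all features. In 11 members both Irf4-/- arrays lay above both wild-type arrays, and in 4 both lay below, while 17.9% and 21.3% of all features did so. Under the other settings the shares of all features called were 3.69% with normexp background correction, 5.08% with median scaling, 3.89% with trend and robust settings and 1.27% from the authors' deposited table. They were 0.00488% with quantile scaling, 0.894% with all 4 arrays required above background, 0.804% with a signal floor and 0.629% with probes averaged. Without Irf4-/- replicate 1 the share was 2.37%, without Irf4-/- replicate 2 it was 1.01%, and it was 0% without a filter, with the replicate block and without either wild-type replicate. The members called in these settings numbered between 0 and 10. With median scaling the adjusted p of members followed the size of the genotype difference, whatever the gene's own spread. A pass in that setting therefore speaks only of a large difference. Differences are Irf4-/- minus wild type on the log2 scale. The median difference was 0.68 over 13 tested B-cell markers, 0.53 over 10 class II genes and 0.75 over 6 myeloid markers, beside -0.020 over all features tested. Spib, H2-Aa and Cd40 passed the filter only through Irf4-/- cells, and Cd79a, Bank1 and Cr2 only through wild-type cells. This tilts their differences toward the genotype that let them in. These counts, shares and medians therefore describe the tested members alone. The members were also chosen with earlier results of these data known, so the shares set beside all features are no independent support. In whole samples, fewer cells of a type and less RNA per cell cannot be told apart.

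**Figure D1:**
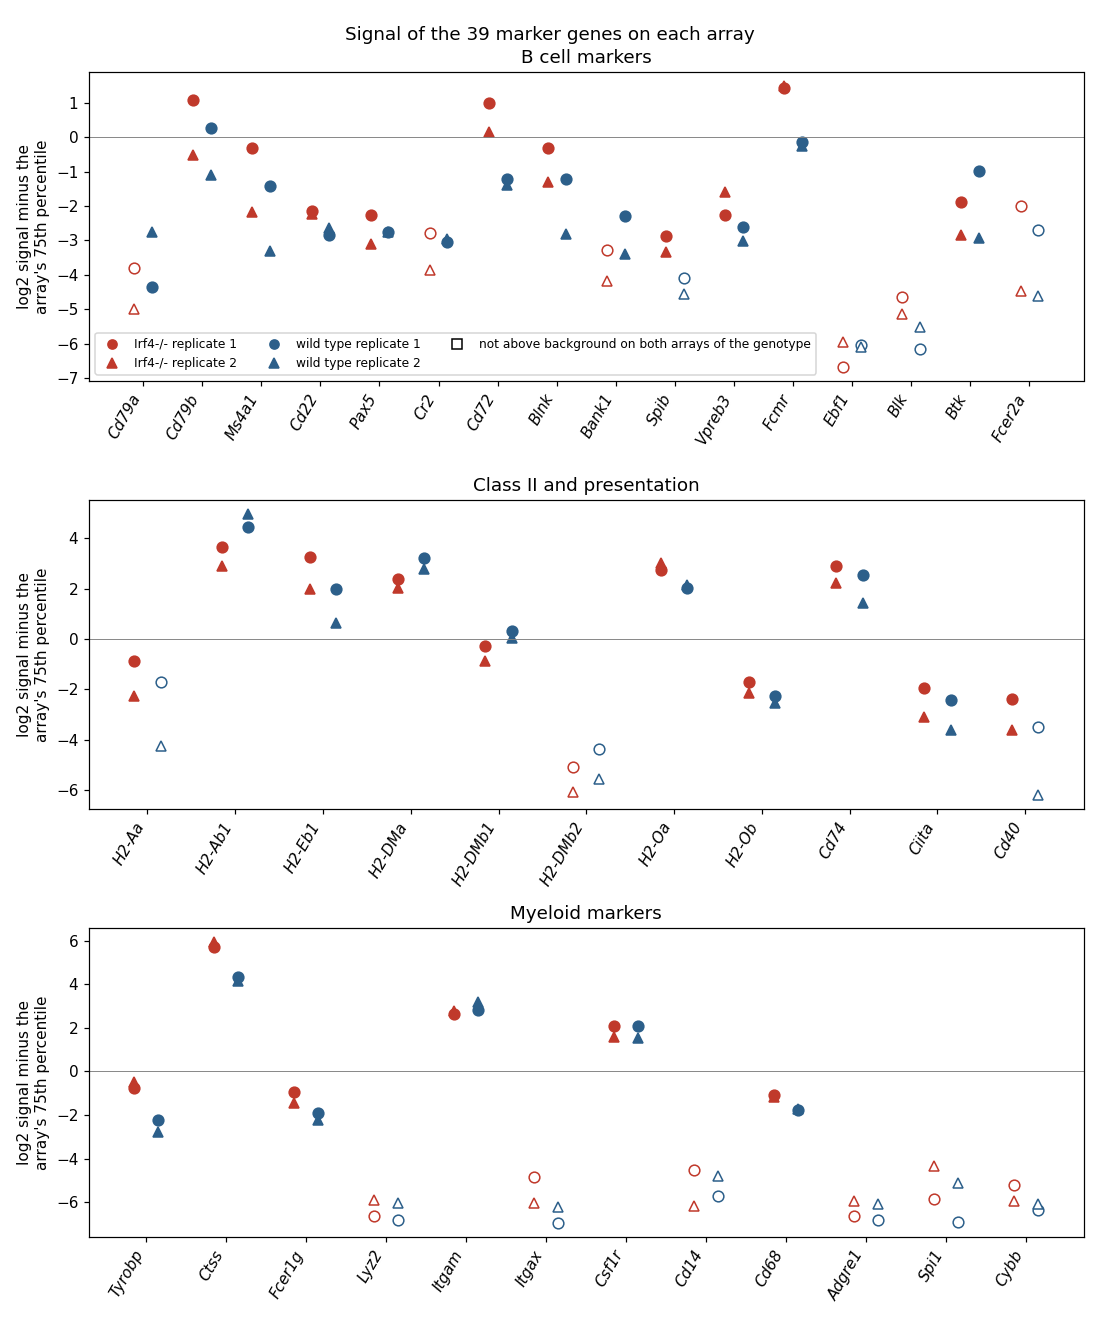
Level of each of the 39 marker genes (log2 signal minus the array's 75th percentile) on the 2 Irf4-/- arrays (red, left) and the 2 wild-type arrays (blue, right), with circles for replicate 1 and triangles for replicate 2. Open symbols mark a genotype in which the probe was not well above background on both arrays; 7 genes were above background on no array.

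Among B-cell markers, Fcmr alone passed the test. It encodes the Fc receptor for IgM, found mainly on B cells. Its level was 1.43 and 1.49 on the Irf4-/- arrays, against -0.14 and -0.27 on the wild-type arrays, a 3.18-fold rise (difference 1.67 ± 0.17 SE, limma adjusted p = 0.0395). The groups were far apart and each was narrow, with an SD of 0.037 in Irf4-/- cells and 0.090 in wild-type cells. The call did not survive the replicate block (adjusted p = 0.108), the quantile scaling (0.0753), the test without a filter (0.524) or leaving out Irf4-/- replicate 2 (0.0609), wild-type replicate 1 (0.130) or wild-type replicate 2 (0.178), although the difference stayed between 1.35 and 1.73 under all 14 alternatives.

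Cd72, an inhibitory co-receptor of B cells, was at 1.00 and 0.15 in Irf4-/- cells and at -1.21 and -1.38 in wild-type cells (difference 1.87 ± 0.32 SE, limma adjusted p = 0.0982). Its second probe gave 2.29. The groups did not overlap, and the genotype gap exceeded the gap between the arrays of either genotype. The transcription factor gene Spib was at -2.86 and -3.32 in Irf4-/- cells and at -4.08 and -4.55 in wild-type cells, with a difference of 1.22 in row 1 and 1.23 in row 2 (limma adjusted p = 0.163). Cd22, an inhibitory lectin that dampens B-cell receptor signals, was at -2.15 and -2.23 in Irf4-/- cells, against -2.85 and -2.64 in wild-type cells (difference 0.56, adjusted p = 0.324). Vpreb3, a gene of the VpreB family, was at -2.27 and -1.59 in Irf4-/- cells, against -2.60 and -3.01 in wild-type cells (difference 0.87, limma adjusted p = 0.372). None of these 4 passed the test. Cd72 passed in 4 of 14 alternatives, with a difference between 1.43 and 2.30, and Spib passed with median scaling alone (1.12, adjusted p = 0.0374). With normexp the differences of Spib, Cd22 and Vpreb3 were 0.36, 0.32 and 0.35. Spib was above background on both Irf4-/- arrays and on 1 of 2 wild-type arrays.

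The antigen receptor chains and the CD20 gene Ms4a1 followed another course. Ms4a1 was at -0.30 and -2.16 in Irf4-/- cells, against -1.41 and -3.31 in wild-type cells, so the arrays of a genotype differed more than the genotypes did. The difference was 1.13 ± 0.86 SE (limma adjusted p = 0.795), close to equal in row 1 (1.11) and row 2 (1.15). Cd79b, a signalling chain of the B-cell receptor, was at 1.08 and -0.53 in Irf4-/- cells, against 0.27 and -1.09 in wild-type cells (difference 0.68 ± 0.69 SE, adjusted p = 0.878). Its partner Cd79a did not move with it: the level was -3.80 and -4.99 in Irf4-/- cells, against -4.35 and -2.75 in wild-type cells, and the difference was 0.54 in row 1 and -2.23 in row 2 (limma adjusted p = 0.800). Cd79a was above background on 1 of 2 Irf4-/- arrays, as were Bank1 and Cr2, and on both wild-type arrays.

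The adaptor gene Blnk, which links the B-cell receptor to its kinases, was at -0.33 and -1.29 in Irf4-/- cells, against -1.21 and -2.80 in wild-type cells (difference 1.19 ± 0.61 SE, limma adjusted p = 0.604). It passed with median scaling alone (1.09, adjusted p = 0.0481), and with normexp the difference was 0.59, as that of Ms4a1 was 0.44. The kinase gene Btk was at -1.90 and -2.83 in Irf4-/- cells, against -0.98 and -2.94 in wild-type cells, with a difference of opposite sign in row 1 (-0.92) and row 2 (0.11; limma adjusted p = 0.947). Bank1, a scaffold of B-cell signalling, had differences of -0.96 in row 1 and -0.79 in row 2 and did not pass (limma adjusted p = 0.644). Pax5, the factor that commits cells to the B lineage, differed by 0.069 with a 95% interval from -0.74 to 0.88. Cr2, the complement receptor CD21, differed by -0.33, and both it and Pax5 had opposite signs in the rows. In all, 4 of 29 members did (Btk, Cd79a, Cr2 and Pax5), beside 37.2% of all features.

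The other B-cell markers were not tested. Ebf1, an early factor of the B lineage, and the kinase gene Blk were above background on no array. Fcer2a, the low-affinity IgE receptor CD23, was above background on both row 1 arrays (-1.99 in Irf4-/- and -2.70 in wild-type cells) and on neither row 2 array.

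Class II genes went both ways, and none passed the test. H2-Ab1, the class II beta chain of the I-A molecule, was lower in Irf4-/- cells, at 3.64 and 2.91, against 4.47 and 4.97 in wild-type cells (difference -1.44 ± 0.32 SE, 2.71-fold lower, limma adjusted p = 0.174). Its 3 other probes gave -1.44, -1.41 and -1.33, and all 4 probes had both Irf4-/- arrays below both wild-type arrays. The limma adjusted p was under 0.05 with trend and robust settings (0.0472), with normexp (0.00176), with median scaling (6.02e-04) and without Irf4-/- replicate 1 (0.0479), and ranged up to 0.812 over the alternatives. H2-Aa encodes the alpha chain that pairs with this beta chain, and its level was -0.86 and -2.25 in Irf4-/- cells, against -1.72 and -4.25 in wild-type cells. Its difference had the other sign, at 1.43 ± 0.93 SE (limma adjusted p = 0.726), in row 1 (0.86) as in row 2 (2.00). It was above background on 1 of 2 wild-type arrays. The difference was 0.55 with normexp, and it passed with median scaling alone (1.32, adjusted p = 0.00641). Both H2-Ab1 and H2-Aa belong to 1 molecule, and their probes also differed in the gap between rows, as given below.

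H2-Eb1, the beta chain of the I-E molecule, was at 3.25 and 1.98 in Irf4-/- cells, against 1.99 and 0.63 in wild-type cells (difference 1.31 ± 0.61 SE, limma adjusted p = 0.555). Within rows the difference was 1.26 and 1.35, but the groups touched, since the lower Irf4-/- array lay just below the higher wild-type array. It passed with median scaling alone (1.20, adjusted p = 0.0195). Cd74, the invariant chain, was at 2.90 and 2.22 in Irf4-/- cells, against 2.56 and 1.44 in wild-type cells (difference 0.56, adjusted p = 0.810). Ciita was at -1.93 and -3.11 in Irf4-/- cells, against -2.41 and -3.63 in wild-type cells, with a difference of 0.48 in row 1 and 0.52 in row 2 (adjusted p = 0.898).

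Genes of the peptide exchange machinery split by complex. H2-DMa, which with its beta chain frees class II of the invariant chain remnant, was at 2.37 and 2.05 in Irf4-/- cells, against 3.21 and 2.77 in wild-type cells (difference -0.78 ± 0.24 SE, limma adjusted p = 0.308). H2-DMb1 was at -0.28 and -0.87 in Irf4-/- cells, against 0.33 and 0.06 in wild-type cells (difference -0.77 ± 0.26 SE, adjusted p = 0.368). Both lay below wild type on both arrays. H2-Oa, a chain of the protein that restrains H2-DM, lay above wild type instead, at 2.73 and 3.01 in Irf4-/- cells, against 2.03 and 2.15 in wild-type cells (difference 0.78 ± 0.19 SE, adjusted p = 0.204). H2-Ob, its partner, was at -1.72 and -2.16 in Irf4-/- cells, against -2.26 and -2.52 in wild-type cells (difference 0.45 ± 0.23 SE, adjusted p = 0.603). The DM pair thus had negative and the O pair positive differences, and no member of either pair passed. H2-DMa and H2-Oa did pass with normexp (adjusted p = 0.0376 and 0.0327) and with trend and robust settings (0.0441 and 0.0165). H2-DMb2 was above background on 1 wild-type array and was not tested; its sequence is close to that of H2-DMb1, and probes of such neighbours may share signal.

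Cd40, the receptor through which T cells activate antigen-presenting cells, was at -2.38 and -3.61 in Irf4-/- cells and at -3.47 and -6.19 in wild-type cells, where replicate 2 was not above background. Its difference of 1.84 ± 0.96 SE did not pass (limma adjusted p = 0.613) and rests on that undetected signal. With a signal floor it was 0.71 (adjusted p = 0.716), with normexp 0.43 (adjusted p = 0.263). Median scaling gave 1.73, where it did pass (adjusted p = 6.41e-05) although the wild-type arrays lay far apart. In that setting the adjusted p followed the size of the difference and not the gene's spread. The summed linear signal of the class II members above background on any array, in units of the array's 75th percentile, was 43.4 and 29.6 in Irf4-/- cells and 47.4 and 48.2 in wild-type cells. The same sum was 10.0 and 6.34 in Irf4-/- cells against 4.90 and 2.94 in wild-type cells for B-cell markers. For myeloid markers it was 64.4 and 72.5 in Irf4-/- cells against 32.4 and 30.6 in wild-type cells. Bright probes weigh most in such sums. Ctss, at 5.71 and 5.94 in Irf4-/- cells against 4.35 and 4.15 in wild-type cells, alone makes the myeloid gap. The other myeloid markers together have similar sums in both genotypes. H2-Ab1 alone makes the class II sum lower in Irf4-/- cells, and the rest of that sum is higher there within each row.

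**Figure D2:**
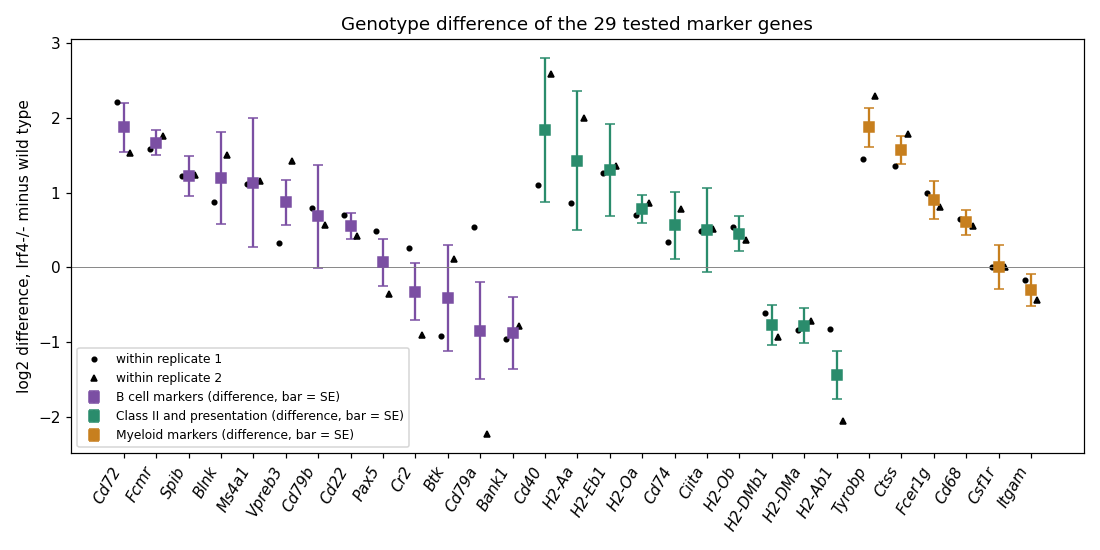
Log2 difference (Irf4-/- minus wild type) of the 29 tested marker genes, with limma's standard error as the bar, and the differences within replicate 1 (dot) and replicate 2 (triangle). Fcmr, Spib, Ctss, Fcer1g and Cd68 have small bars above 0, H2-Ab1, H2-DMa and H2-DMb1 lie below 0, and Ms4a1, H2-Aa and Cd40 have wide bars.

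Class II genes share a Y box in their promoters, the site of the factor NF-Y, which is known to work with the RFX factors and Ciita. RefSeq promoter windows of 300 bases (GRCm38.p6, 250 before to 50 after the start) were found for 27 of the 39 members, among them 7 of 8 H2 genes. H2-Ab1 had no window, nor had Cd74, Ciita and Cd40. The letters ATTGG, read on the gene's own strand and starting 36 to 100 bases before the start, were found in 6 of these 7 (not in H2-DMa). They were found in none of the 20 other members with a window, which are all B-cell or myeloid markers. This distance was chosen after the matches were seen, and 8.06% of all 32851 windows hold the letters in it (37.41% on either strand anywhere in the window). The windows below are shown because they come from genes with positive differences (H2-Aa, H2-Eb1, H2-Oa, H2-Ob) and from one with a negative difference (H2-DMb1), which all hold the same letters. Each runs from 110 to 21 bases before the start, 5′ to 3′ on the gene's strand, with ATTGG in capitals.
H2-Aa, chr17:34287844-34287933, minus strand: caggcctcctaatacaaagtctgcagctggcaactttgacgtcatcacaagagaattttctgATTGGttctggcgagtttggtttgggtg
H2-Eb1, chr17:34305757-34305846, plus strand: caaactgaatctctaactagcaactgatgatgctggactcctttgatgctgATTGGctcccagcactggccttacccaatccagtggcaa
H2-Oa, chr17:34092269-34092358, plus strand: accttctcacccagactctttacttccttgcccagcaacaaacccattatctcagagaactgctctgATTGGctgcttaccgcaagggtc
H2-Ob, chr17:34238795-34238884, plus strand: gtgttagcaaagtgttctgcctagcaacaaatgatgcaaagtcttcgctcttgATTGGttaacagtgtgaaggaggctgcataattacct
H2-DMb1, chr17:34153081-34153170, plus strand: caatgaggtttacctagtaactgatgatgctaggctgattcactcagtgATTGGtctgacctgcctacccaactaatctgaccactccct

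The Y box begins 48 bases before the start of H2-Aa, 59 before H2-Eb1, 43 before H2-Oa, 57 before H2-Ob and 61 before H2-DMb1. A match is a description of the letters and says nothing of binding in these cells.

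Myeloid markers divided into 6 that were above background on all 4 arrays and 6 that were not tested. Lyz2 (lysozyme M), Adgre1 (the macrophage surface receptor), Itgax (CD11c), Spi1 (the factor PU.1) and Cybb (an NADPH oxidase subunit) were above background on no array by any probe. Cd14, the lipopolysaccharide co-receptor, was above background on 1 Irf4-/- array alone. Those above background throughout were Ctss, Tyrobp, Fcer1g, Cd68, Csf1r and Itgam.

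Ctss, which encodes the protease cathepsin S, was at 5.71 and 5.94 in Irf4-/- cells, against 4.35 and 4.15 in wild-type cells. The difference was 1.57 ± 0.19 SE (2.98-fold, limma adjusted p = 0.0539), with groups that did not overlap and SDs of 0.16 in Irf4-/- and 0.14 in wild-type cells. Tyrobp, a signalling adaptor of natural killer and myeloid receptors, was at -0.78 and -0.47 in Irf4-/- cells, against -2.23 and -2.76 in wild-type cells (difference 1.87 ± 0.26 SE, adjusted p = 0.0650). Neither passed. The adjusted p of Ctss was under 0.05 in 7 of 14 alternatives and that of Tyrobp in 5, both with normexp, median scaling and trend and robust settings and without Irf4-/- replicate 1. The difference of Ctss ranged from 1.46 to 1.69 over the alternatives and that of Tyrobp from 0.82, with normexp, to 2.14.

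Fcer1g, the shared signalling chain of several Fc receptors, was at -0.93 and -1.45 in Irf4-/- cells, against -1.93 and -2.25 in wild-type cells (difference 0.90 ± 0.25 SE, limma adjusted p = 0.259). Cd68, a lysosomal membrane protein gene, was at -1.10 and -1.15 in Irf4-/- cells, against -1.76 and -1.70 in wild-type cells (difference 0.60 ± 0.17 SE, adjusted p = 0.249), and its second probe gave 0.58. Csf1r, the receptor of the macrophage growth factor, was at 2.10 and 1.56 in Irf4-/- cells, against 2.09 and 1.55 in wild-type cells, a difference of 0.0071 with a 95% interval from -0.74 to 0.76. Its second probe was far dimmer, at -2.35 and -2.42 in Irf4-/- cells, against -3.00 and -2.42 in wild-type cells, and gave 0.33. Itgam, the integrin CD11b, was at 2.64 and 2.76 in Irf4-/- cells, against 2.81 and 3.20 in wild-type cells (difference -0.30, adjusted p = 0.755), while its second probe differed by 0.63, so Itgam gave no settled direction.

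**Figure D3:**
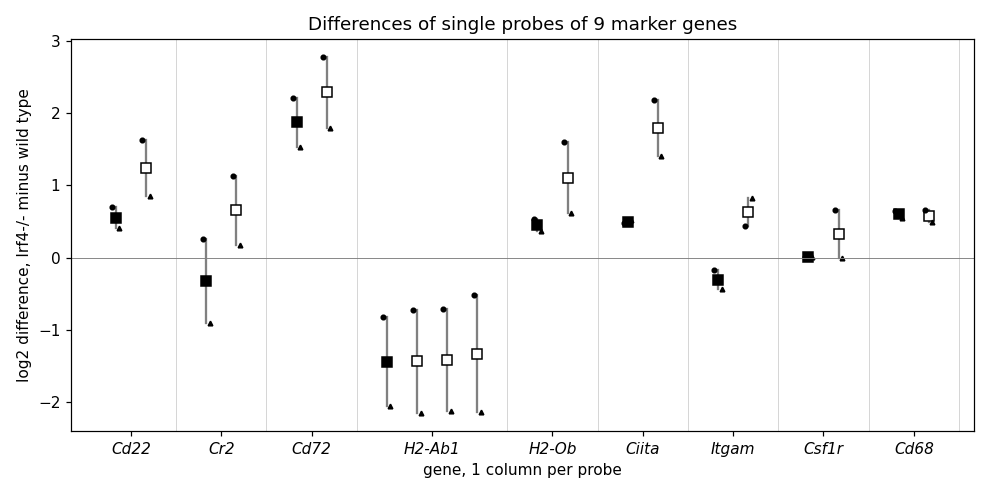
Log2 difference (Irf4-/- minus wild type) of single probes of the 9 marker genes with more than 1 probe above background on some array. Squares are differences of means, filled for the probe used, with a dot for replicate 1 and a triangle for replicate 2; the 4 H2-Ab1 probes lie together between -1.44 and -1.33, and the Cr2 and Itgam probes have opposite signs.

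Several probes of a gene gave a check on the values. Of 9 members with more than 1 probe above background somewhere, 7 had differences of 1 sign, and Cr2 and Itgam did not. Cd22 gave 0.56 and 1.24 and Ciita 0.50 and 1.79, where the second Ciita probe was above background on 1 Irf4-/- array alone.

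The gap between the 2 arrays of a genotype set some members apart from most features. Ms4a1, Cd79b, H2-Aa, H2-Eb1, Ciita and Cd40 were lower in row 2 than in row 1 by at least 1 in both genotypes. That is 6 of 29 tested members, 20.7%, beside 20 of 20512 features, 0.0975%. The limit of 1 was chosen after the values were seen, and no test was made. For Ms4a1 the row 2 minus row 1 gap was -1.86 in Irf4-/- cells and -1.90 in wild-type cells, for Cd79b -1.60 and -1.37, and for H2-Eb1 -1.27 and -1.36. For H2-Aa it was -1.38 and -2.52, for Ciita -1.17 and -1.21, and for Cd40 -1.23 and -2.72. The row 2 signal of Cd40 and H2-Aa in wild-type cells was not above background. With every signal held at its array's lowest level well above background, the wild-type gap was -0.60 for Cd40 and -2.35 for H2-Aa. Then 5 of 29 members, without Cd40, were past the limit, 17.2%, beside 0.0683% of features. In the further lists 1 of 16 B-cell genes, 0 of 19 myeloid and dendritic cell genes and 0 of 15 T-cell genes were past it before this step. No member was higher in row 2 by at least 1 in both genotypes, beside 1.27% of all features. Row 2 was lower than row 1 by any amount in both genotypes in 18 of 29 members, beside 38.6% of features.

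Other members did not show this gap. It was 0.053 in Irf4-/- and -0.13 in wild-type cells for Fcmr, 0.23 and -0.19 for Ctss, 0.31 and -0.53 for Tyrobp, and -0.050 and 0.052 for Cd68. H2-Ab1 had -0.73 and 0.50, opposite signs in the 2 genotypes, and the 15 T-cell genes had medians of -0.013 and -0.13. Over all features tested the median gap was -0.072 and -0.031. The 6 members comprised 2 B-cell, 4 class II and 0 myeloid genes. Slide row coincides with replicate number, and the labels do not say whether arrays of the same number shared a culture or a sort. The Irf4-/- arrays also lay in different slide columns (3 in row 1 and 2 in row 2), while both wild-type arrays lay in column 1. Row, culture and sort cannot be told apart, nor can column in Irf4-/- cells, and their part in these values was not tested.

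**Figure D4:**
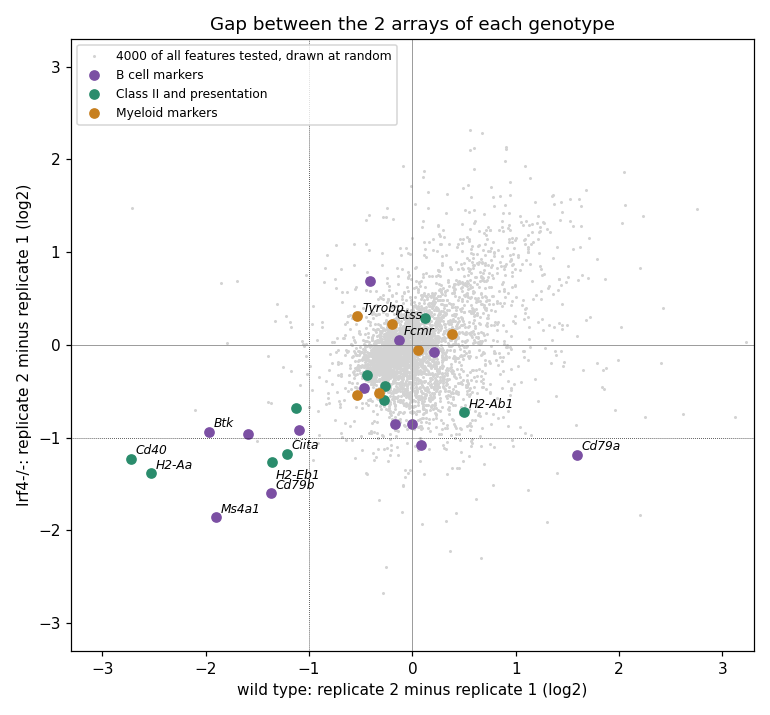
Gap between the arrays of a genotype, row 2 minus row 1 (log2), in wild-type cells (x axis) and Irf4-/- cells (y axis), for the 29 tested marker genes (coloured) and 4000 of all features tested, drawn at random (grey; the most extreme points lie outside the axes). Dotted lines mark -1; the 6 genes in the lower left, Ms4a1, Cd79b, H2-Aa, H2-Eb1, Ciita and Cd40, lie beyond both lines (Cd40 through a wild-type signal not above background), while Fcmr and Ctss lie near 0.

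Lists of further genes of the same cell types gave no call. Of 26 other B-cell genes 16 were tested, 15 with positive and 1 with a negative difference, and none passed (median 0.70). The largest were the coactivator gene Pou2af1 (2.46, limma adjusted p = 0.0684), Cd83 (2.46, adjusted p = 0.122), Cd24a (1.62, adjusted p = 0.0579) and the kinase gene Syk (1.37, adjusted p = 0.0701). Pou2af1 was at 3.03 and 2.68 in Irf4-/- cells, against 0.84 and -0.06 in wild-type cells, and Cd24a at 2.67 and 2.74 in Irf4-/- cells, against 0.89 and 1.28 in wild-type cells. Activated T cells are known to use Cd83 and Cd24a too.

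Of 40 other myeloid and dendritic cell genes 19 were tested, 13 higher and 6 lower in Irf4-/- cells by sign, with none past the threshold (median 0.24), and 15 were above background on no array. Mpeg1, a pore-forming protein gene of macrophages, differed by 1.25 (limma adjusted p = 0.312), and Csf2rb, a receptor chain for GM-CSF, by 0.94 (adjusted p = 0.258). The oxidase subunit gene Ncf4 differed by 0.82 (adjusted p = 0.168). Cx3cr1, the fractalkine receptor, was above background on both Irf4-/- arrays and on neither wild-type array. It was 2.49-fold higher with each wild-type array set to its own detection limit or the probe's signal, whichever was higher. This detection limit is the lowest level counted as well above background on the array. Some probes above it were still not counted, such as Blk at -4.63 on Irf4-/- replicate 1, where the limit was -4.67. The 2.49-fold value is therefore not a strict bound. Cx3cr1 entered the test through the Irf4-/- arrays alone, so a positive difference was built in, and it was named after its values were seen. It did not pass (limma adjusted p = 0.0623), and that fit used the undetected wild-type signals and not the detection limit.

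Of 13 other genes of class II control and costimulation 10 were tested and none passed (median 0.23). Cd86, the ligand of CD28, was at -0.49 and -0.18 in Irf4-/- cells, against -1.87 and -3.09 in wild-type cells (difference 2.15 ± 0.43 SE, limma adjusted p = 0.138). Rfxank, a subunit of the RFX complex that binds class II promoters, differed by 0.41 (adjusted p = 0.612), and the ligand genes Cd274 and Pdcd1lg2 by 0.43 (adjusted p = 0.677) and 0.46 (adjusted p = 0.850). In the class I pathway, which all nucleated cells use, 14 of 15 tested genes had positive differences and none passed (median 0.23). H2-K1 was at 8.52 and 8.61 in Irf4-/- cells, against 8.13 and 8.02 in wild-type cells (difference 0.49, adjusted p = 0.366). B2m differed by 0.50 (adjusted p = 0.364), the immunoproteasome gene Psmb10 by 0.58 (adjusted p = 0.358) and the peptide trimming enzyme gene Erap1 by 0.41 (adjusted p = 0.559).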

How the data were processed

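The 4 one-colour arrays held 62976 spots each, and the authors read their intensity with Feature Extraction 11.0.1.1, per the file headers (9.1 in the submitters' processing notes). The intensity used is the processed signal, background-subtracted within each array, per the file headers, with no scaling across arrays. A second deposited file holds log2 values; compared with the scanner files, it is the processed signal less the 75th percentile, centred per probe, with shifts up to 0.03. Its column medians were -0.11 and 0.12 for Irf4-/- arrays and -0.16 and 0.10 for wild-type arrays.

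Control spots and flagged spots were left out (137 probes lost on some array), and spots of a probe averaged. RefSeq names (GRCm38.p6) were found by accession for 32989 probes, giving 22907 symbols. The array design used mm9, so no array coordinates are given, and sequences are from RefSeq. Log2 signals minus each array's 75th percentile were compared with limma 3.58.1 in R 4.3.3 (lmFit and eBayes, 2 residual and 2.95 prior degrees of freedom), 1 probe a gene, Benjamini-Hochberg adjustment over 20512 and a threshold of 0.05. The fit was tested on simulated data. The number of arrays limits the precision.

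The members and lists were chosen with earlier results of these data known, so patterns shown before are no independent support. All members are accounted for; of other lists the genes past the threshold and up to 4 with the largest difference above background on every array are named, apart from items not reported here, and Cx3cr1 and the T-cell genes Cd3e and Cd4 were added after their values were seen. The 14 alternatives are background correction (normexp on median spot and local background signal, since the files hold no mean signal), scaling, filter, floor, trend, block, probe rule, deposited table and leaving out each array. The row gap at the detection limit was added after seeing the data. Replicates were numbered in accession order, and the numbers coincide with slide row; the labels do not pair the arrays.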

Additional observations from a re-analysis of the deposited data

How the results depend on the processing

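Calls depended on the setting. Against 151 features and 1 member called, normexp gave 757 and 7, median scaling 1043 and 10 (it moved the median of all features by -0.11), trend and robust 798 and 7, the deposited values gave 260 and 2, quantile scaling 1 and 0 (none higher, 1 lower; 2518 at an unadjusted p under 0.05), no filter 0 and 0 (2099 unadjusted), and the replicate block 0 and 0 (3193 unadjusted, 22 of them members). Deviations of arrays sharing a number had r = 0.348 over genes, which with 2 pairs does not establish a pairing. The signal floor called 2 members and the stricter filter 3. Leaving out 1 array gave 0 to 487 features and 0 to 4 members, the 0 arising when either wild-type array was dropped (limma; 1864 features unadjusted without replicate 1, 1678 without replicate 2). The B-cell median of 0.68 was 0.35 with normexp, 0.58 with median scaling, 0.87 with the stricter filter and 0.18 to 1.08 with 1 array left out. The class II median of 0.53 was 0.37, 0.42, 0.78 with probes averaged and 0.084 to 0.91. The myeloid median of 0.75 was 0.45, 0.64, 0.62 without a filter and 0.61 to 0.89. The lowest B-cell and class II medians came without wild-type replicate 2. Of 400 member differences recomputed, 16 turned sign, all uncalled: Pax5 (-0.061 normexp, -0.040 median scaling, -0.36 to 0.49 with 1 array left out), Csf1r (-0.031, -0.10, -0.0069 with the deposited values, -0.26 to 0.28), Cr2 (0.51 probes averaged, -0.87 to 0.21), Itgam (0.17 probes averaged), Btk (-1.39 to 0.58), Ciita (-0.11 to 1.11) and Cd79b (-0.12 to 1.49), the ranges being those with 1 array left out. The cause was not tested. The count of members lower in row 2 was 6, and 5 at the detection limit. The limits are 2 arrays a genotype, 6 members without a settled level above background on all arrays among those tested, and a detection limit that lay higher in row 2 than in row 1.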

Other observations

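Markers of other lymphocytes and of blood cells were read on the same arrays. Of 8 natural killer cell genes 5 were tested and none passed: Klrd1 was at 1.52 and 1.86 in Irf4-/- cells, against -0.73 and 0.37 in wild-type cells (difference 1.87, limma adjusted p = 0.157), and Gzma differed by -2.19 ± 0.58 SE (adjusted p = 0.230). Eomes differed by 1.44 (adjusted p = 0.280) and Klrk1 by -0.75 (adjusted p = 0.302). In the T-cell list 7 differences were positive and 8 negative with a median of -0.0034, the largest being Cd5 (0.86, adjusted p = 0.130) and Cd6 (0.75, adjusted p = 0.173), followed by Cd2 (-0.48, adjusted p = 0.373) and Cd28 (-0.48, adjusted p = 0.408). Of 10 erythroid and platelet genes 2 were tested and neither passed. Hba-a1 was at -1.03 and 0.35 in Irf4-/- cells, against -1.14 and -1.42 in wild-type cells, a haemoglobin signal that was brightest on Irf4-/- replicate 2, unlike Ms4a1 and Cd79b, which were brightest on Irf4-/- replicate 1.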
